A study of Mus musculus with 4 samples.

Results

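Visceral white and brown adipose tissue of obese mice both release exosomes, and the miRNA content of the exosomes from these depots was compared here within HFD alone. The HFD vWAT-Exos library came from exosomes of visceral white adipose tissue (vWAT), and the HFD BAT-Exos library from exosomes of brown adipose tissue (BAT). Both were made from wild-type C57BL/6 (B6) mice given in the labels as 6 weeks old and fed a high-fat diet (HFD) for 4 months. An LFD vWAT-Exos and an LFD BAT-Exos library from wild-type B6 mice on a low-fat diet (LFD) over the same time were used as a second pair. The exosomes were collected from the medium of cultured tissue pieces, so that every cell type of a depot could have contributed. Each of the 4 groups is 1 library, how many mice stand behind a library and which visceral pad was taken are not given in the sources used here, and in bulk samples such as these fewer cells of a type and less RNA per cell or vesicle cannot be told apart.

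The table holds 1640 entries with 1482 different sequences, of which 697 carry a mouse miRNA name. The comparison rests on 483 of these 697 sequences, taken once each, with a norm value (the normalized count of the authors' table) of 10 or more in HFD vWAT-Exos or HFD BAT-Exos. Of the other 214 sequences, 143 were listed at 0 in both HFD libraries. At the edge, let-7g-3p was taken in with norm values of 0 in HFD vWAT-Exos and 11.3 in HFD BAT-Exos, and miR-487b-3p stayed outside with 0 and 9.88. The norm values of all sequences summed to 2839846 in HFD vWAT-Exos and 5832550 in HFD BAT-Exos. By an approximation from the values, 1 read was worth 2.37 in HFD vWAT-Exos and 0.706 in HFD BAT-Exos, which makes about 1198338 reads in HFD vWAT-Exos against 8265829 reads in HFD BAT-Exos. The norm value minimum of 10 thus stood for 4.22 reads in HFD vWAT-Exos and 14.2 reads in HFD BAT-Exos, and the vWAT-Exos value of 1 read rested on 3 entries only.

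miRNAs are short RNAs that guide Argonaute proteins to messenger RNAs, mainly through the seed, the bases next to the 5′ end of the mature strand. A hairpin precursor gives a 5p and a 3p strand, one of which is usually kept as the guide while the other, the passenger, is mostly lost. White adipose tissue stores fat and in obesity takes in many macrophages and other leukocytes, while brown adipocytes are rich in mitochondria, burn fat for heat and share a lineage with skeletal muscle. miR-378, from an intron of Ppargc1b, and the miR-193b and miR-365 pair are known for their abundance in brown fat, and miRNAs of the Hox gene clusters differ between body regions.

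The sequences below belong to the miRNAs with the widest depot differences and to families whose members shared a direction. They are the RefSeq mature strands of the mouse (GRCm38.p6), written 5′ to 3′ with the seed, bases 2 to 8, in capitals. Of these 24 strands, 14 had the same sequence in the deposited table and 10 differed there only in length at an end. The first pair are Hox cluster miRNAs, followed by strands of leukocytes and inflammation, the miR-200 family, brown fat and muscle miRNAs, strands of the let-7 hairpins, the miR-30 family and the miR-125 seed family.
miR-196a-5p: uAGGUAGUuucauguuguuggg
miR-196b-5p: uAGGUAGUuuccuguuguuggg
miR-142a-5p: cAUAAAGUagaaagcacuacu
miR-142a-3p: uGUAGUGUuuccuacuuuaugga
miR-21a-5p: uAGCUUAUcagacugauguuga
miR-200a-3p: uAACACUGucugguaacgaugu
miR-141-3p: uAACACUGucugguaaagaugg
miR-200b-3p: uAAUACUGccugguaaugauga
miR-200c-3p: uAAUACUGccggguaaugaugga
miR-429-3p: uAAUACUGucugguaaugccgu
miR-193b-3p: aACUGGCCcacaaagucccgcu
miR-193b-5p: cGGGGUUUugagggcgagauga
miR-365-3p: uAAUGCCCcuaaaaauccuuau
miR-206-3p: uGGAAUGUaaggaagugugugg
miR-499-5p: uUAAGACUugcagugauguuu
let-7a-5p: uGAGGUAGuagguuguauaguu
let-7d-5p: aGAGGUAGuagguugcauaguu
let-7a-1-3p: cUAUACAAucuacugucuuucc
let-7d-3p: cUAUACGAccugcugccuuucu
miR-30a-5p: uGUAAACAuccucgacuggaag
miR-30c-5p: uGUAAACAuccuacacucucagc
miR-125a-5p: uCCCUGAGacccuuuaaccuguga
miR-125b-5p: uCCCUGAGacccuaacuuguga
miR-351-5p: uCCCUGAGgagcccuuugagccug

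HFD vWAT-Exos were led by miR-21a-5p and HFD BAT-Exos by miR-378a-3p. miR-21a-5p, a miRNA that increases in inflamed and fibrotic tissue, had a norm value of 439869 in HFD vWAT-Exos against 72338 in HFD BAT-Exos, or 15.5% against 1.24% of the library total. miR-378a-3p had 113025 in HFD vWAT-Exos against 2080467 in HFD BAT-Exos, or 3.98% against 35.7%. The 10 most abundant miRNAs made up 55.5% of the HFD vWAT-Exos total and 67.1% of the HFD BAT-Exos total, and 6 of them were the same. Among those shared, miR-29a-3p (7.61% and 6.25%) and miR-22-3p (7.40% and 6.49%) took nearly the same share of HFD vWAT-Exos and HFD BAT-Exos.

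**Figure D1:**
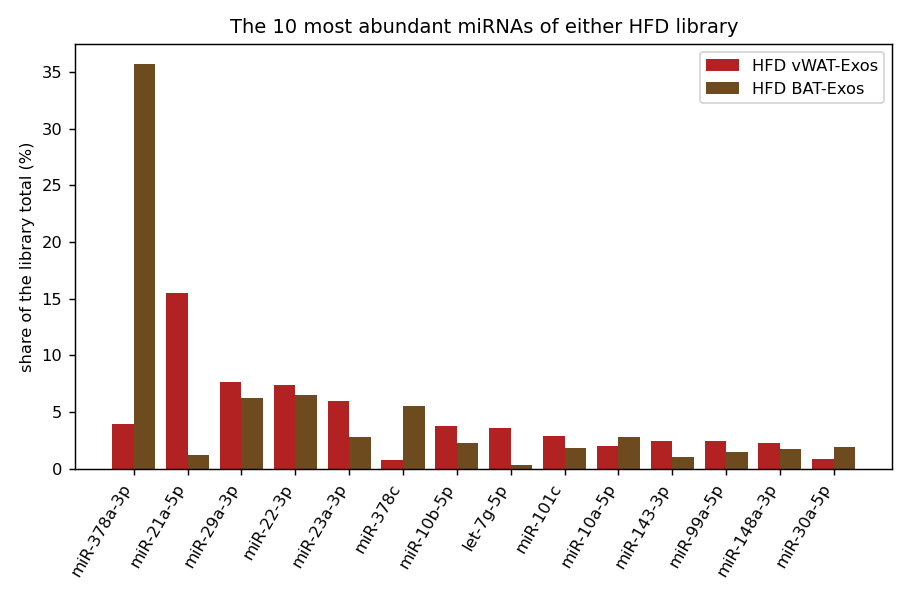
Share of the library total (%, y axis) of the miRNAs among the 10 most abundant of HFD vWAT-Exos (red bars) or HFD BAT-Exos (brown bars), 1 library each. miR-378a-3p took 35.7% of HFD BAT-Exos against 3.98% of HFD vWAT-Exos, and miR-21a-5p took 15.5% of HFD vWAT-Exos.

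Most of the miRNAs differed between the depots by 2-fold or more, and the split depended on how the libraries were scaled. By norm value, 158 of the 483 miRNAs (32.7%) were at least 2-fold higher and 172 (35.6%) at least 2-fold lower in HFD vWAT-Exos, while 153 lay within 2-fold. As shares of the library total, 230 (47.6%) were higher and 120 (24.8%) lower. The miR-378 family alone held 4.90% of HFD vWAT-Exos against 42.3% of HFD BAT-Exos. The higher miRNAs thus made up 47.9% of the calls by norm value and 65.7% by share, and the median log2 ratio moved from -0.18 by norm value to 0.86 by share. Median-of-ratios scaling gave 167 higher (34.6%) and 170 lower (35.2%). With the miR-378 family taken out of the totals, an alternative chosen after the data were seen, 171 were higher (35.4%) and 157 lower (32.5%). On norm values, shares and median-of-ratios scaling together, 158 miRNAs (32.7%) were higher and 120 (24.8%) lower, and a difference that held on all 3 is so described from here on. Shares and median-of-ratios scaling both raised every ratio of vWAT-Exos over BAT-Exos above that of the norm values. A higher call by norm value therefore had to hold on all 3 scales, and only a lower call could fail. With 1 library a side these counts carry no test, and the percentages are the background for every count of list members.

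**Figure D2:**
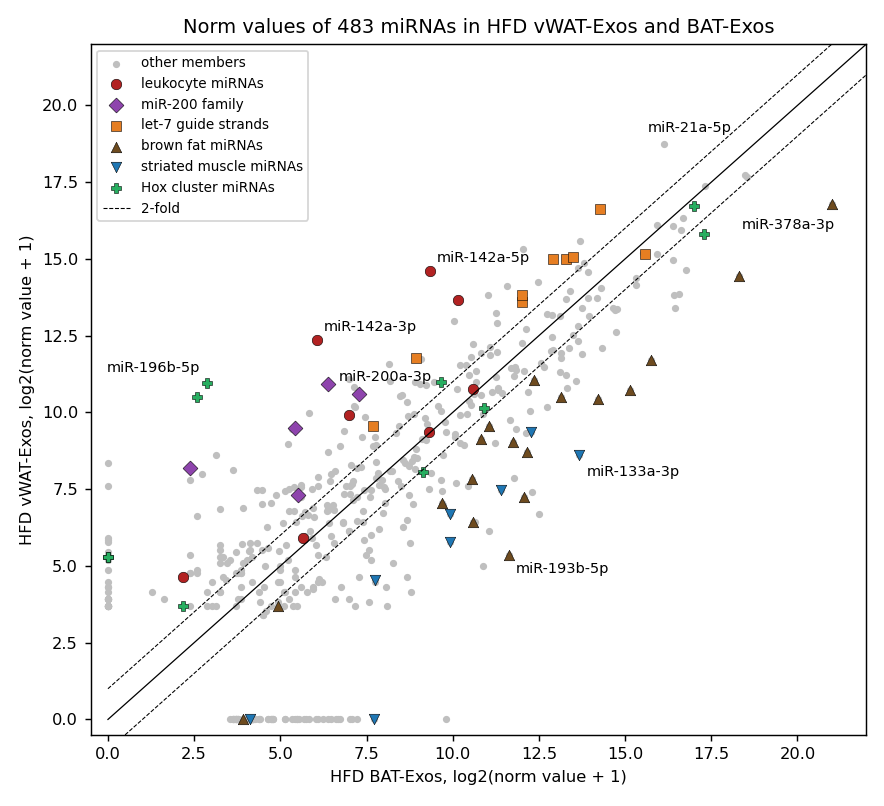
Each point is 1 of the 483 miRNAs, with log2(norm value + 1) in HFD vWAT-Exos on the y axis and in HFD BAT-Exos on the x axis. Solid line, equal values. Dashed lines, 2-fold. Brown fat and muscle miRNAs lie below the line, and the miR-200 family lies above it, with miR-200a-3p at 1936 in HFD vWAT-Exos against 83.3 in HFD BAT-Exos.

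Among the 307 miRNAs with a norm value of 100 or more in an HFD library, 94 were at least 2-fold higher and 99 lower, of which 20 were at least 10-fold higher and 24 at least 10-fold lower. On all 3 scales 67 of the 99 lower ones held, while the 94 higher ones had to hold by the direction of the scaling. Of the 176 miRNAs under 100 in both libraries, 64 were higher and 73 lower. In this low range 52 were listed at 0 in HFD vWAT-Exos and 25 in HFD BAT-Exos, where 5 reads correspond to a norm value of 11.8 in HFD vWAT-Exos and 3.53 in HFD BAT-Exos.

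The depot effect was tested over all 4 libraries with limma (log2(norm value + 1), depot and diet as additive terms), in which the error is the departure of 4 single libraries from additivity, with 1 residual degree of freedom, and not the spread between mice or preparations. Of 512 miRNAs tested, 33 (6.45%) were higher and 67 (13.1%) lower in vWAT-Exos at a Benjamini-Hochberg adjusted p under 0.05, and 193 had an unadjusted p under 0.05. On shares of the library total limma called 154 higher and 54 lower, so that the balance of the directions turned with the scaling. The smallest adjusted p by limma was 0.022. It was shared by miR-196b-5p, with a depot effect of 7.52 ± 0.59 (SE) on the log2 scale, and by miR-193b-5p, with -6.39 ± 0.52.

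The Hox cluster miRNAs miR-196a-5p and miR-196b-5p, which repress Hox messenger RNAs and share a seed, had the largest ratios of all miRNAs that reached 100 and were above 0 in both libraries. miR-196b-5p had a norm value of 2005 in HFD vWAT-Exos against 6.35 in HFD BAT-Exos, 316-fold higher (95% interval for counting error 166 to 693). miR-196a-5p had 1436 in HFD vWAT-Exos against 4.94 in HFD BAT-Exos, 291-fold higher. The LFD pair gave nearly the same picture, with 1947 in LFD vWAT-Exos against 14.9 in LFD BAT-Exos for miR-196b-5p and 1392 against 4.13 for miR-196a-5p. Their passenger strands miR-196b-3p and miR-196a-2-3p, at 37.9 each in HFD vWAT-Exos, were listed at 0 in both BAT-Exos libraries. These 4 strands passed limma's test, each at an adjusted p of 0.022. For the passenger strands the BAT-Exos side was the pseudocount alone and had no spread between the diets. The size of their depot effect was thus set by the pseudocount, and their passing adds no support.

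The other Hox cluster miRNAs divided. miR-10b-3p, the passenger strand of Mir10b, had 2052 in HFD vWAT-Exos against 807 in HFD BAT-Exos, 2.54-fold higher, and miR-615-5p had 11.8 in HFD vWAT-Exos against 3.53 in HFD BAT-Exos. miR-10a-5p had 57184 in HFD vWAT-Exos against 160652 in HFD BAT-Exos, 2.81-fold lower by norm value but only 1.37-fold lower as a share. miR-10b-5p had 107379 in HFD vWAT-Exos against 131716 in HFD BAT-Exos. miR-615-3p had 268 in HFD vWAT-Exos against 567 in HFD BAT-Exos, while in the LFD pair it had 411 in LFD vWAT-Exos against 213 in LFD BAT-Exos. Of the 10 listed Hox cluster miRNAs among the 483, 6 were higher and 2 lower by norm value. On all 3 scales 6 were higher and none lower. These 6 include miR-615-5p, whose values stood for about 5 reads in either HFD library. They also include miR-196b-3p and miR-196a-2-3p, which passed the minimum through HFD vWAT-Exos alone.

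All 18 brown fat miRNAs were at least 2-fold lower in HFD vWAT-Exos by norm value, 14 of them on all 3 scales, with a median log2 ratio of -3.61 by norm value and -2.57 by share, against -0.18 and 0.86 over all 483. Among them miR-365-1-5p, at 0 in HFD vWAT-Exos and 14.1 in HFD BAT-Exos, passed the minimum through BAT-Exos alone. That value lay near 5 reads of HFD vWAT-Exos (11.8), so the filter largely set its direction. The markers of brown fat were thus at their higher level in the library labelled BAT. Together they took 5.22% of HFD vWAT-Exos and 43.7% of HFD BAT-Exos. In the depot test, limma called 11 of the 18 lower and none higher at an adjusted p under 0.05.

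Within the list, the miR-378 strands were 10.9-fold to 28.1-fold lower. miR-378a-3p was 18.4-fold lower by norm value and 8.96-fold lower as a share of the total, and its passenger strand miR-378a-5p had 152 in HFD vWAT-Exos against 4265 in HFD BAT-Exos. miR-378c and miR-378d differ from miR-378a-3p by few bases, so that reads may have been divided among them. miR-378c had 22180 in HFD vWAT-Exos against 320418 in HFD BAT-Exos.

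The miR-193b and miR-365 hairpins lie close together (Mir193b to Mir365-1, chr16:13449523-13453926, plus strand, GRCm38.p6). All 4 of their strands among the 483 were lower, miR-365-1-5p (0 against 14.1) only near the floor. miR-193b-5p had 40.3 in HFD vWAT-Exos against 3196 in HFD BAT-Exos, 79.3-fold lower (49.5 to 136), the largest ratio in that direction among miRNAs that reached 100 and were above 0 in both libraries. miR-193b-3p had 1384 in HFD vWAT-Exos against 18816 in HFD BAT-Exos, 13.6-fold lower. miR-365-3p had 1690 in HFD vWAT-Exos against 36458 in HFD BAT-Exos, 21.6-fold lower. The 2 strands of Mir193b thus differed in depot ratio by several fold, the passenger strand being the scarcer one in vWAT-Exos.

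Other members of the list were less far apart. miR-193a-3p, of a second hairpin that shares the miR-193b-3p seed, had 761 in HFD vWAT-Exos against 2139 in HFD BAT-Exos, 2.81-fold lower, and miR-365-2-5p had 11.8 in HFD vWAT-Exos against 29.6 in HFD BAT-Exos. miR-203-3p, which is best known from skin, had 2135 in HFD vWAT-Exos against 5261 in HFD BAT-Exos, and miR-32-5p had 557 in HFD vWAT-Exos against 1799 in HFD BAT-Exos. None of these 4 was 2-fold lower as a share of the total. miR-455-3p, known to act in brown adipogenesis, had 130 in HFD vWAT-Exos against 819 in HFD BAT-Exos, 6.29-fold lower.

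Striated muscle miRNAs were lower in HFD vWAT-Exos in 8 of 8 cases on all 3 scales. Their median log2 ratio was -4.03 by norm value. Of the 8, miR-1a-1-5p (0 in HFD vWAT-Exos and 16.2 in HFD BAT-Exos) passed the minimum through BAT-Exos alone, near the floor. miR-133a-3p, a repressor of Prdm16 as well as a muscle miRNA, had 392 in HFD vWAT-Exos against 13086 in HFD BAT-Exos, 33.4-fold lower. miR-206-3p had 175 in HFD vWAT-Exos against 2729 in HFD BAT-Exos, 15.6-fold lower, and miR-499-5p, from the slow myosin gene Myh7b, had 54.5 in HFD vWAT-Exos against 966 in HFD BAT-Exos, 17.7-fold lower. miR-208b-3p, from the slow myosin gene Myh7, was listed at 0 in HFD vWAT-Exos and had 208 in HFD BAT-Exos.

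The muscle ratios were closer to 1 on LFD, a difference between diets that could not be tested. miR-133a-3p had 490 in LFD vWAT-Exos against 1829 in LFD BAT-Exos, and the list's median log2 ratio was -1.54. Its sum took 0.0496% of HFD vWAT-Exos, 0.397% of HFD BAT-Exos, 0.0608% of LFD vWAT-Exos and 0.0752% of LFD BAT-Exos, so that the HFD BAT-Exos library stood apart from the other 3. Limma called none of the 8 at an adjusted p under 0.05, and in the LFD pair 5 of 8 were at least 2-fold lower and miR-208b-3p higher. The part of muscle adhering to the brown pad in these values was not tested.

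**Figure D3:**
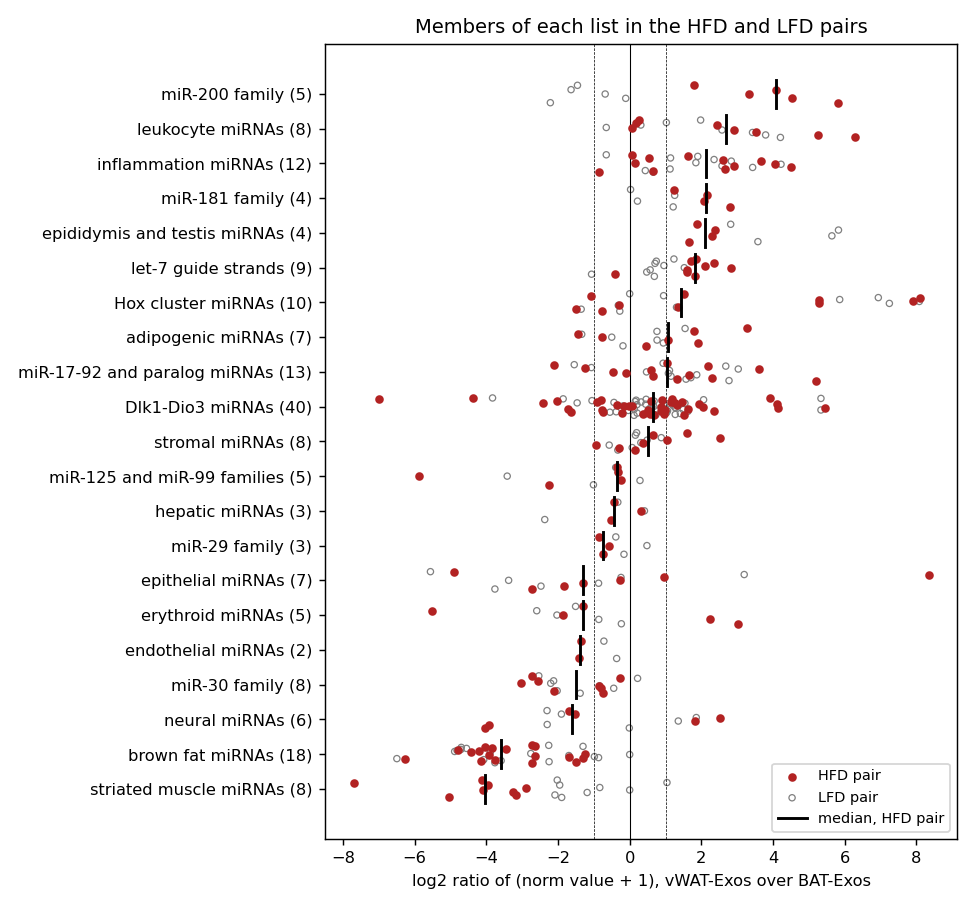
log2 ratio of (norm value + 1), vWAT-Exos over BAT-Exos, for the members of each list (number of members in parentheses), in the HFD pair (filled red) and the LFD pair (open grey). Black bars are medians of the HFD pair and dashed lines mark 2-fold. The miR-200 family has the highest median (4.07) and striated muscle miRNAs the lowest (-4.03).

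The miR-200 family members, known to maintain epithelial character by repressing Zeb1 and Zeb2, were higher in HFD vWAT-Exos in 5 of 5 cases on all 3 scales. miR-200a-3p had 1936 in HFD vWAT-Exos against 83.3 in HFD BAT-Exos, 23.3-fold higher (19.1 to 28.4). miR-141-3p, which shares its seed, had 291 in HFD vWAT-Exos against 4.23 in HFD BAT-Exos, 68.8-fold higher (30.7 to 191). Of the members with the other seed of the family, miR-200b-3p had 1538 in HFD vWAT-Exos against 153 in HFD BAT-Exos, miR-200c-3p had 716 against 41.6, and miR-429-3p had 156 against 44.5. The 5 come from separate clusters, Mir200a to Mir429 (chr4:156053905-156055750, minus strand) and Mir141 to Mir200c (chr6:124717914-124718390, minus strand), and both clusters were higher throughout.

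On LFD the family lay the other way by norm value. miR-200a-3p had 805 in LFD vWAT-Exos against 869 in LFD BAT-Exos, miR-200b-3p had 742 against 1193, and miR-141-3p had 13.6 against 66.9. The sum of the 5 was 4638 in HFD vWAT-Exos and 327 in HFD BAT-Exos, and 1736 in LFD vWAT-Exos and 2650 in LFD BAT-Exos. The family therefore combined a high value in HFD vWAT-Exos with a low value in HFD BAT-Exos. As shares the LFD sums were 0.0672% of LFD vWAT-Exos and 0.0469% of LFD BAT-Exos, so that on LFD the order of the depots turned with the scaling. Limma called none of the 5, and the difference between the diets could not be tested with 1 library per group.

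Other epithelial miRNAs divided. miR-375-3p, a miRNA of endocrine and gut epithelium, had 325 in HFD vWAT-Exos and was listed at 0 in HFD BAT-Exos. The miR-183, miR-96 and miR-182 cluster (chr6:30165918-30169737, minus strand, GRCm38.p6), known from sensory epithelia, was lower throughout. miR-96-5p had 171 in HFD vWAT-Exos against 5090.4 in HFD BAT-Exos, 29.8-fold lower, and miR-182-5p had 519 in HFD vWAT-Exos against 3417 in HFD BAT-Exos. Both were called lower by limma, at adjusted p 0.022 and 0.035. miR-205-5p, a miRNA of squamous epithelium, had 322 in HFD vWAT-Exos against 389.5 in HFD BAT-Exos, and 252 in LFD vWAT-Exos against 2631 in LFD BAT-Exos.

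Leukocyte miRNAs were higher in HFD vWAT-Exos, 5 of 8 on all 3 scales and none lower, with a median log2 ratio of 2.68. These 5 include miR-223-5p, at 23.7 in HFD vWAT-Exos against 3.53 in HFD BAT-Exos, which passed the minimum through HFD vWAT-Exos alone. The median lay between its log2 ratio (2.45) and that of miR-155-5p (2.91), and so rested in part on this strand. miR-142a-5p, from a hairpin active in all blood cells, had 25079 in HFD vWAT-Exos against 650 in HFD BAT-Exos, 38.6-fold higher (36.1 to 41.3). Its partner miR-142a-3p had 5247 in HFD vWAT-Exos against 66.3 in HFD BAT-Exos, 79.1-fold higher. miR-150-5p of mature lymphocytes had 13079 in HFD vWAT-Exos against 1140.3 in HFD BAT-Exos, and miR-155-5p of activated leukocytes had 962 against 127.

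The leukocyte list was not uniform. miR-223-3p, the most myeloid of these miRNAs, had 659 in HFD vWAT-Exos against 633 in HFD BAT-Exos, and miR-342-3p had 1744 against 1530.5. As shares of the total all 8 were at least 2-fold higher. The depot ratio of miR-142a-5p, miR-142a-3p, miR-150-5p and miR-155-5p passed limma's test, and the LFD pair was of the same kind, with 20409 in LFD vWAT-Exos against 1469 in LFD BAT-Exos for miR-142a-5p.

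Inflammation miRNAs, which overlap the leukocyte list in miR-155-5p and miR-223-3p, had 7 of 12 higher on all 3 scales and none lower. miR-21a-5p was 6.08-fold higher by norm value and 12.5-fold as a share, and miR-21a-3p had 1796 in HFD vWAT-Exos against 139.7 in HFD BAT-Exos. miR-146b-5p, which dampens NF-κB signalling, had 3422 in HFD vWAT-Exos against 541 in HFD BAT-Exos, while its paralog miR-146a-5p had 24423 against 15455, within 2-fold. miR-147-3p, induced in macrophages by Toll-like receptors, had 279.6 in HFD vWAT-Exos against 11.3 in HFD BAT-Exos. miR-132-3p and miR-212-3p come from neighbouring hairpins, and only the second was far apart, with 97.2 in HFD vWAT-Exos against 4.94 in HFD BAT-Exos, while miR-132-3p had 588 against 1073.

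Erythroid miRNAs pointed both ways by norm value, with 2 higher and 3 lower, against 2 higher and 1 lower on all 3 scales. The strand lower on all 3 scales was miR-486a-3p, listed at 0 in HFD vWAT-Exos with 45.2 in HFD BAT-Exos. It passed the minimum through HFD BAT-Exos alone. miR-144-3p had 1154 in HFD vWAT-Exos against 142 in HFD BAT-Exos, 8.14-fold higher, and miR-144-5p had 180.1 against 37.4. miR-451a, from the adjoining hairpin (Mir144 to Mir451a, chr11:78073005-78073241, plus strand), had 3796 in HFD vWAT-Exos against 13822 in HFD BAT-Exos, 3.64-fold lower. miR-486b-5p had 5135 in HFD vWAT-Exos against 12760 in HFD BAT-Exos. As shares of the total, neither miR-451a (log2 ratio -0.83) nor miR-486b-5p (-0.27) was 2-fold lower. On LFD miR-144-3p had 688 in LFD vWAT-Exos against 808 in LFD BAT-Exos. By norm value miR-451a again was lower in LFD vWAT-Exos (2627 against 10738).

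The let-7 hairpins differed between depots in opposite directions on their 2 strands. let-7 guides repress growth genes such as Lin28 and Hmga2, and their passenger strands are normally scarce. Of 11 let-7 5p strands, 10 were higher in HFD vWAT-Exos on all 3 scales and none was lower. Of 11 let-7 3p sequences, which include end variants of let-7a-1-3p, none was higher and 8 were lower, 7 of them on all 3 scales. Those lower include let-7g-3p, at 0 in HFD vWAT-Exos and 11.3 in HFD BAT-Exos, which passed the minimum through BAT-Exos alone. The median log2 ratio was 1.82 for the 5p and -2.24 for the 3p strands by norm value, and 2.86 and -1.21 by share.

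let-7g-5p had 101186 in HFD vWAT-Exos against 19754 in HFD BAT-Exos, 5.12-fold higher. let-7e-5p had 3484 in HFD vWAT-Exos against 489 in HFD BAT-Exos, and let-7a-5p had 14521 against 4117. let-7b-5p alone of the guides did not differ 2-fold, with 36445 in HFD vWAT-Exos against 48676 in HFD BAT-Exos.

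let-7d-3p had 2093 in HFD vWAT-Exos against 12290 in HFD BAT-Exos, 5.87-fold lower, whereas let-7d-5p of the same hairpin had 12523 against 4116, 3.04-fold higher. miR-98-3p had 11.8 in HFD vWAT-Exos against 272 in HFD BAT-Exos, 22.9-fold lower, whereas miR-98-5p had 748 against 207. Over all strands of the family, 3p strands made up 1.66% of the let-7 norm values in HFD vWAT-Exos and 18.2% in HFD BAT-Exos. This share does not depend on the scaling. On LFD it was 3.47% in vWAT-Exos and 11.3% in BAT-Exos, and there 2 of the 11 5p strands were higher and 1 lower. Limma called none of the 9 guide strands of the let-7 list at an adjusted p under 0.05.

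The arms of the other hairpins were compared in the same way. Of 128 hairpins with both arms among the 483, 44 had both arms at least 2-fold apart in the same direction and 11 in opposite directions. Of those 11, 6 were among the 10 let-7 hairpins. Arms near the floor enter these counts, such as let-7g-3p with 0 in HFD vWAT-Exos and 11.3 in HFD BAT-Exos. Where both arms reached 100, 5 of 7 let-7 hairpins had opposite calls, against 0 of 56 other hairpins. Of those 56, 17 had both arms apart in the same direction. Among the let-7 hairpins, let-7f-5p is counted for both Mirlet7f-1 and Mirlet7f-2. On all 3 scales 4 of the 7 let-7 hairpins had opposite calls. In the LFD pair 1 of these 7 let-7 hairpins had opposite calls, that of miR-98, against 0 of the 56 others. The arms of the other 118 hairpins had a Spearman correlation of 0.66 in log2 ratio across hairpins, which share their libraries and are not independent.

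**Figure D4:**
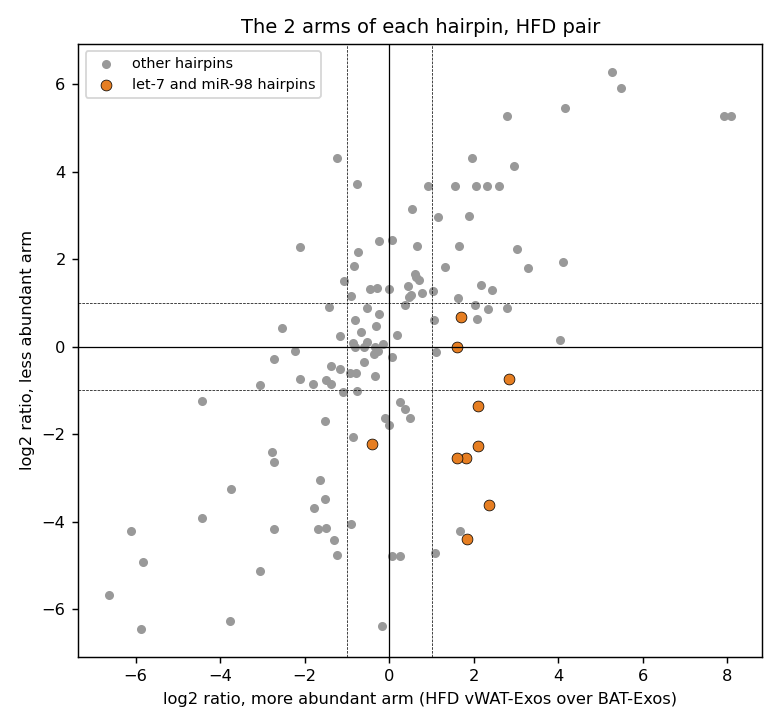
log2 ratio (HFD vWAT-Exos over BAT-Exos) of the less abundant arm (y axis) against the more abundant arm (x axis) of 128 hairpins. Dashed lines mark 2-fold. Most let-7 and miR-98 hairpins (orange) lie at lower right, with 5p strands higher and 3p strands lower in vWAT-Exos, while the other hairpins (grey) follow the diagonal with a Spearman correlation of 0.66.

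Families that share a seed were then compared. Of 18 seeds carried by 3 or more of the 483 sequences, 3 had every member at least 2-fold higher and 2 every member at least 2-fold lower, while 4 had members called in both directions. All 4 miR-181 guides, which act in lymphocyte development, were higher, led by miR-181a-5p with 14411 in HFD vWAT-Exos against 2078 in HFD BAT-Exos. Their median log2 ratio was 2.12 on HFD and 0.72 on LFD, and limma called none of the 4. The miR-130 and miR-301 seed, whose members repress Pparg, had 3 of 3 higher. By the deposited sequences, the miR-378 seed CUGGACU and the let-7 3p seed UAUACAA were the 2 with every member lower. The CUGGACU group includes miR-378d, whose RefSeq strand carries CUGGCCU. The UAUACAA group counts variants of let-7a-1-3p as separate members.

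The miR-30 family, pro-adipogenic miRNAs that act on Runx2, was lower in HFD vWAT-Exos for 4 of its 5 guides on all 3 scales. miR-30c-5p had 10898 in HFD vWAT-Exos against 90106 in HFD BAT-Exos, 8.27-fold lower, and was called lower by limma at an adjusted p of 0.049. miR-30a-5p had 25518 in HFD vWAT-Exos against 110590 in HFD BAT-Exos, 4.33-fold lower. miR-30b-5p, which shares the seed, had 9125 in HFD vWAT-Exos against 15753 in HFD BAT-Exos, within 2-fold.

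Members of the miR-125 seed family were graded. miR-351-5p had 30.8 in HFD vWAT-Exos against 1868 in HFD BAT-Exos, 60.6-fold lower, miR-125a-5p had 4353 against 20556, 4.72-fold lower, and miR-125b-5p had 17043 against 20266, within 2-fold. All 3 carry the seed CCCUGAG. On the X chromosome the Mir322 to Mir542 cluster next to Mir351 (chrX:53047997-53054349, minus strand) was lower in 7 of 8 strands, with miR-322-5p, known from muscle differentiation, at 647 in HFD vWAT-Exos against 4448 in HFD BAT-Exos.

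Of 7 adipogenic miRNAs, 4 were higher on all 3 scales and 1 was lower by norm value, with a median log2 ratio of 1.07. Limma called none of the 7. miR-335-5p, from an intron of the obesity-induced gene Mest, had 40820 in HFD vWAT-Exos against 4206 in HFD BAT-Exos, 9.71-fold higher, and on LFD it had 10952 against 3749. miR-26a-5p, known to promote differentiation of human adipocytes, had 49020 in HFD vWAT-Exos against 13184 in HFD BAT-Exos. miR-27b-3p, which represses Pparg, had 31735 in HFD vWAT-Exos against 85988 in HFD BAT-Exos, lower by norm value but not by share. Of 8 stromal miRNAs 3 were higher and none lower, with miR-199b-5p at 17726 in HFD vWAT-Exos against 3059 in HFD BAT-Exos and the smooth muscle miRNA miR-143-3p at 69824 against 62409.

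The imprinted Dlk1-Dio3 locus, expressed from the maternal chromosome, gave 40 of the 483 miRNAs, of which 15 were higher and 6 lower by norm value, and 15 and 4 on all 3 scales. Over all 483, 32.7% were higher and 35.6% lower by norm value. Of the higher strands, miR-379-3p, miR-665-3p, miR-380-3p, miR-411-3p, miR-431-5p and miR-485-5p passed the minimum through HFD vWAT-Exos alone. Of the lower strands, miR-543-3p and miR-667-3p passed it through HFD BAT-Exos alone. miR-379-5p had 1007 in HFD vWAT-Exos against 55.7 in HFD BAT-Exos, 18.1-fold higher, and miR-411-5p had 704 against 39.5, 17.8-fold higher. On LFD they were closer, with 596 in LFD vWAT-Exos against 245 in LFD BAT-Exos for miR-379-5p and 602 against 290 for miR-411-5p. The locus' most abundant strand, miR-127-3p, had 4024 in HFD vWAT-Exos against 2490.1 in HFD BAT-Exos. miR-543-3p was listed at 0 in HFD vWAT-Exos and had 128 in HFD BAT-Exos.

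The miR-17 seed had 4 of 6 members higher and none lower by norm value, against 32.7% higher and 35.6% lower over all 483. Of these 4, miR-20b-5p and miR-106a-5p (35.5 in HFD vWAT-Exos against 0 in HFD BAT-Exos) passed the minimum through HFD vWAT-Exos alone. Other members of the same clusters were lower. miR-20b-5p had 114 in HFD vWAT-Exos against 8.47 in HFD BAT-Exos, 13.4-fold higher. miR-92a-3p had 6221 in HFD vWAT-Exos against 27093 in HFD BAT-Exos, 4.36-fold lower. The 3 miR-29 guides, repressors of collagens, and the liver miRNAs stayed within 2-fold by norm value, and miR-122-5p, which marks hepatocytes, had 182 in HFD vWAT-Exos against 262 in HFD BAT-Exos.

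Markers of other tissues and cell types were also present. Of 8 listed miRNAs of epididymis and testis, 4 were among the 483, and all 4 were higher in HFD vWAT-Exos. All 4 are strands of the neighbouring hairpins Mir34b and Mir34c and so stand for the same locus. Of them, miR-34c-3p (26.1 against 4.23) and miR-34b-5p (28.4 against 4.94) passed the minimum through HFD vWAT-Exos alone. miR-34c-5p had 1931 in HFD vWAT-Exos against 524 in HFD BAT-Exos. This list summed to 0.0712% of HFD vWAT-Exos and 0.00933% of HFD BAT-Exos. The endothelial list took 0.495% of HFD vWAT-Exos and 0.635% of HFD BAT-Exos. Both of its strands were lower by norm value but not by share, miR-126a-3p having 10536 in HFD vWAT-Exos against 28076 in HFD BAT-Exos. Of 6 neural miRNAs 4 were lower and 2 higher, with the brain-enriched miR-128-3p at 232 in HFD vWAT-Exos against 3530 in HFD BAT-Exos. The part of these cell types in the depot differences was not tested.

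A few miRNAs outside the lists were as far apart. miR-129-2-3p, best known from brain, had 102 in HFD vWAT-Exos against 5851 in HFD BAT-Exos, 57.4-fold lower, and miR-129-5p had 68.7 against 2130.3, 31.0-fold lower. miR-129-1-3p of the other hairpin was listed at 0 in HFD vWAT-Exos and had 892 in HFD BAT-Exos, the highest value opposite a 0. miR-298-5p and miR-296-3p, from an imprinted cluster at the Gnas locus (Mir296 to Mir298, chr2:174267047-174267585, minus strand), were 52.6-fold and 50.7-fold higher, with miR-296-3p at 393 in HFD vWAT-Exos against 7.76 in HFD BAT-Exos. miR-181a-1-3p had 256 in HFD vWAT-Exos against 5.64 in HFD BAT-Exos.

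The depot difference on HFD resembled that on LFD over the whole set. The log2 ratios of the 483 miRNAs in the HFD and LFD pairs had a Spearman correlation of 0.79 across miRNAs, which are not independent replicates. In the LFD pair, 132 of 482 miRNAs (27.4%) were at least 2-fold higher and 146 (30.3%) lower. Of the 158 higher on HFD, 95 (60.1%) were also at least 2-fold higher on LFD, and of the 172 lower on HFD, 124 (72.1%) were also lower on LFD. Conversely, 93 of the 132 higher (70.5%) and 120 of the 146 lower (82.2%) miRNAs of the LFD pair were called alike on HFD.

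**Figure D5:**
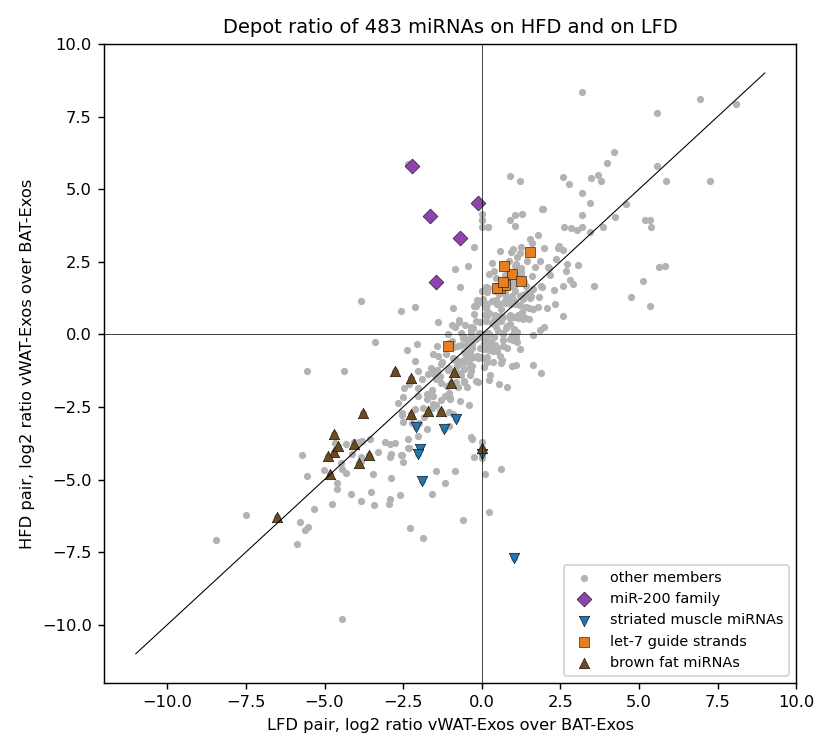
log2 ratio of (norm value + 1), vWAT-Exos over BAT-Exos, of the 483 miRNAs in the HFD pair (y axis) against the LFD pair (x axis). The line marks equal ratios. The miR-200 family lies far above the line, and miR-208b-3p of the muscle list far below it. The Spearman correlation across miRNAs was 0.79.

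Position, strand and base composition were described over the whole set. Of 34 genomic clusters holding 2 or more of the 483 strands, with hairpins no more than 10000 bases apart, 9 had every strand called in 1 direction and 11 had strands called in both. The 5p strands had 83 of 211 higher (39.3%) and 68 lower (32.2%), and the 3p strands had 62 of 233 higher (26.6%) and 88 lower (37.8%). Of 96 sequences with under 40% GC, 38.5% were higher and 36.5% lower, and of 79 with over 60% GC, 24.1% were higher and 40.5% lower. The log2 ratio had a Spearman correlation of -0.093 with GC content and 0.087 with length across the 483 sequences.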

How the data were processed

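Small RNA of exosomes from tissue explants was extracted with TRIzol, made into libraries with TruSeq Small RNA kits and sequenced on a HiSeq 2500. The authors processed the reads with ACGT101-miR, and the submitters' processing notes list the human build GRCh38 although the samples are of mouse. The deposited signal is a normalized count per sequence and library, and it was used as deposited. The method of normalization is not given in the sources used. Raw reads were not analysed here.

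Entries with a mouse name were taken once per sequence. Ratios of norm values were calculated directly, and log2 ratios with a pseudocount of 1. A miRNA was called at 2-fold, and one listed at 0 on a side was called by direction with no fold. Shares were taken of all sequences of a library, and median-of-ratios factors from mouse sequences above 0 in all 4 libraries. The value of 1 read was taken from predicted entries whose names carry a read number, and 86.9% of HFD vWAT-Exos and 86.5% of HFD BAT-Exos values were whole reads within 0.01. Intervals (95%) are exact binomial on these approximate reads and cover counting error only. The norm values were not treated as reads in any test.

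Depot over both diets was tested with limma 3.58.1 (R 4.3.3), Benjamini-Hochberg adjusted over 512 sequences with 10 or more in a library, and the fold count and limma were tested on simulated data. Python 3.11.15, pandas 2.3.3 and scipy 1.17.1 were used. RefSeq sequences were matched by name for 406 of the 483. Lists overlap in part. The miRNAs named were the 10 highest of each HFD library, the 10 largest ratios in each direction among those of 100 or more, those of 100 or more opposite a 0, the highest and the 2-fold members of each list, and 5 that the study measured by qPCR, and some further ones were named after their values were seen. The members and lists were chosen with earlier results of these data known. Alternatives were shares, median-of-ratios scaling, value minimums, a 4-fold threshold, repeated entries, sums per name and, for limma, a pseudocount of 10 and a trended variance.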

Additional observations from a re-analysis of the deposited data

Results flagged for a closer look

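In 8 miRNAs the depot ratio by norm value was at least 2-fold in one direction on HFD and at least 2-fold in the other on LFD, among miRNAs that reached a norm value of 10 in both pairs. mir-1983-p5, which did not reach 10 on LFD, had 56.9 in HFD vWAT-Exos and was listed at 0 in HFD BAT-Exos, and was listed at 0 in LFD vWAT-Exos and had 4.13 in LFD BAT-Exos. With 1 library per group the differences were not tested. Each value below is the log2 ratio of vWAT-Exos over BAT-Exos on HFD minus that on LFD.

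Of the miR-200 family the difference was 8.02 for miR-141-3p, 5.71 for miR-200c-3p and 3.25 for miR-429-3p. miR-208b-3p, a muscle miRNA, had -8.75, being listed at 0 in HFD vWAT-Exos with 208 in HFD BAT-Exos, and having 16.3 in LFD vWAT-Exos with 7.43 in LFD BAT-Exos. miR-330-5p had 4.97, with 35.5 in HFD vWAT-Exos and 15.5 in HFD BAT-Exos, being listed at 0 in LFD vWAT-Exos with 13.2 in LFD BAT-Exos. The size of these values for miR-208b-3p and miR-330-5p was set by the pseudocount of 1 against a listed 0, and they give the direction only. miR-187-3p had -3.21, miR-1843b-3p -2.68 and miR-188-5p -2.15. Apart from miR-141-3p, miR-200c-3p, miR-429-3p and miR-208b-3p, these miRNAs had norm values between 0 and 102 in all 4 libraries.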

How the results depend on the processing

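The diet term of the limma fit compares the depots within each diet, and with 1 library per group no replicate block could be added. Against 158 higher and 172 lower on HFD, there were 94 higher and 99 lower with 100 or more in 1 library, 55 and 65 with 100 or more in both, and 90 higher at 4-fold (120 lower). Without a value minimum 241 were lower. Repeated entries, sums per name and median-of-ratios scaling gave counts within 1.5 times. As shares, the LFD pair had 249 higher and 81 lower, against 132 and 146. The limma counts of 33 higher and 67 lower depended most on the settings: 154 higher and 54 lower as shares, 79 higher and 109 lower with a pseudocount of 10, 96 and 132 with a trended variance. Of 29 named miRNAs called at 2-fold among the 38 followed, 28 held on all 3 scales, the exception being miR-10a-5p. The 38 include the largest ratios in each direction, which these changes of scale could hardly turn. Over all 483 miRNAs, 120 of the 172 lower calls held, and higher calls could not fail. As shares, the median log2 ratio turned positive for the miR-29 family (0.28), the miR-125 and miR-99 families (0.67) and the hepatic list (0.61). The depth of HFD vWAT-Exos, about 1198338 reads, limits the low values most.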
